A study of Drosophila melanogaster with 8 samples.

Results

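The genes described here are the 199 of 15438 genes in 4 tables of RNA-seq values from Drosophila S2 cells whose level stepped up 2 times across the stable Beaf lines, as that of BEAF-32 did. The first step ran from wild-type library 1 to wild-type libraries 2 and 3. The second ran from those to mutant libraries 2 and 3. Levels were in CPM, a gene's value per 1000000 of the values assigned to genes in a library. A member had a mean of at least 20 CPM in mutant libraries 2 and 3. It was also at least 1.3 times higher in wild-type libraries 2 and 3 than in wild-type library 1, and at least 1.5 times higher again in mutant libraries 2 and 3. Of the 4373 genes with at least 20 CPM there, 224 met these thresholds. The other 25 were left out by name: BEAF-32 itself, 8 Hsp genes, the dosage compensation RNA lncRNA:roX1, and Hml, Glt, Col4a1, vkg, NimB5, Sr-CI, Mmp2, hid, et, cac, Mf, bt, sdt, crb and aub. The members were thus selected on the CPM values of 5 libraries, and their order in those libraries is a description. Mutant library 1, the CTCF libraries and the structure of the genes took no part in the choice.

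BEAF-32 is a zinc-finger DNA-binding protein of Drosophila insulators, the elements that separate neighbouring chromatin domains and limit contact between enhancers and promoters. Its sites lie mostly near promoters, often those of housekeeping genes transcribed away from each other, and it works with cofactors such as CP190 and Chromator. CTCF is a separate zinc-finger insulator protein with sites of its own.

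S2 cells are an embryonic line that resembles hemocytes, the blood cells of the fly. They had been stably transfected with pUWG vectors that held the neomycin resistance gene and the Beaf gene, in a wild-type form for 3 libraries and in a mutant form for 3. They were taken as G418-resistant colonies after about 10 days of selection. The mutation is not named in the labels. A further library is labelled as a CTCF control and another as its knockdown, for which the protocol describes 400 µg of double-stranded RNA and 5 days of incubation. Whether the CTCF pair carried a vector is not said. Replicate libraries are not said to come from separate cultures, so a p-value measures only the spread between these libraries, which may be technical. CTCF itself stood at 55.4 CPM in the control and 11.3 CPM in the knockdown.

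Gene totals ran from 1544063 to 2122627 in the Beaf lines, and were 14217989 in the CTCF control and 9267319 in its knockdown. Reads outside annotated features made up 94.0%, 91.7% and 91.3% of wild-type libraries 1 to 3. In mutant libraries 1 to 3 they made up 85.6%, 87.4% and 87.4%, and in the CTCF pair 8.05% and 6.93%. Reads that did not align made up 0.79%, 3.32% and 3.55% of the wild-type libraries and 10.4%, 7.62% and 7.61% of the mutant ones. Across the libraries of the rule the first share fell and the second rose along the same 2 steps. Their part in the members' values was not tested. The labels hold 2 descriptions of library preparation without saying which libraries each covers. Libraries 1 stood apart in both genotypes: chi-square per degree of freedom was 3.52 between wild-type libraries 2 and 3 and 11.1 between 1 and 2, and 2.34 against 38.1 among the mutant libraries. All 8 markers listed for S2 cells were detected, and their summed level was 1108.5 CPM in wild-type library 1, 5570.2 and 5960.1 in wild-type libraries 2 and 3, 9238 to 13372 in the mutant libraries, and 31862 and 23698 in the CTCF control and knockdown. Of these markers, NimC1, Pxn and He are members, and Hml, Glt, Col4a1 and vkg met the thresholds but were left out by name. The blood cell factor srp was nearly level, at 330 to 385 CPM in the wild-type and 394 to 436 CPM in the mutant libraries, so the sum does not stand for each marker. In RNA from bulk cultures, fewer cells of a type and less RNA per cell cannot be told apart.

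BEAF-32 held 25.0, 469 and 676 CPM in the 3 wild-type libraries and 1228, 1613 and 1929 CPM in the 3 mutant libraries. Reads of the endogenous gene and of a transgene would share this count. In the CTCF control and knockdown BEAF-32 was at 58.3 and 66.2 CPM, above wild-type library 1 and below the other Beaf libraries. In the CTCF control 28 of the 199 members, or 14.1%, also lay between wild-type library 1 and the other wild-type libraries. The share was 3.38% of all genes with at least 20 CPM in mutant libraries 2 and 3. The rule made that gap at least 1.3-fold in every member, whereas its median over those genes was 1.04-fold. The higher share in the members therefore follows in part from the choice. The control's level had a median of 1.13 times that of mutant libraries 2 and 3 over the members and 1.46 over those genes. With TMM scaling, which sets libraries to a common level by the bulk of their genes, these medians were 0.831 and 1.07. The step order named in the label is thus shared with BEAF-32 in 5 Beaf libraries by choice, and in the CTCF control by a minority of the members.

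**Figure D1:**
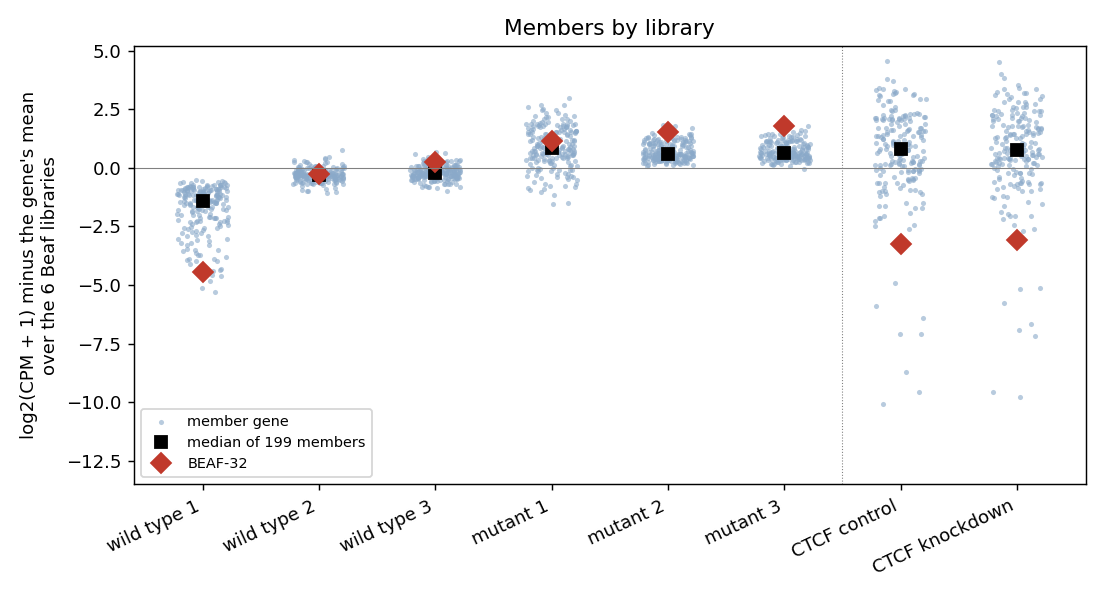
Level of each of the 199 members (points), their median (squares) and BEAF-32 (diamonds) in the 8 libraries, as log2(CPM + 1) minus the gene's mean over the 6 Beaf libraries. By choice the members step up with BEAF-32 from wild-type library 1 to wild-type libraries 2 and 3, and from those to mutant libraries 2 and 3. They spread more widely in mutant library 1. In the CTCF pair, where BEAF-32 is low, many lie around or above their Beaf mean. Some, such as most of the non-coding RNAs, lie far below it.

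The step from wild-type library 1 to the other wild-type libraries had a median of 2.15-fold over the 191 members with a value above 0 in library 1, against 1.04 over all genes with at least 20 CPM. The step to mutant libraries 2 and 3 had a median of 1.91-fold and a range of 1.5 to 4.01, against 0.994. Within a genotype, libraries 2 and 3 lay close together in the members. The ratio of wild-type library 2 to 3 had a median of 0.949, and that of mutant library 2 to 3 a median of 1.00. BEAF-32 itself went from 469 to 676 CPM between those wild-type libraries and from 1613 to 1929 CPM between those mutant libraries. The rule did not use the differences within these pairs. In 197 of the 199 members the order held library by library, with wild-type library 1 below both others of its genotype and those below both mutant libraries. At the edges of the rule, dpr2 was just inside the minimum with 20.2 CPM and CG6231 outside it with 19.7 CPM. CG6051 was inside the first step at 1.33-fold and Gpdh3 outside at 1.297. CG17816 was inside the second at 1.5 and raw outside at 1.491.

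Members with 0 reads in wild-type library 1 numbered 8: Sur, Ama, Cht2, NimC1, Alp6, CG15478, CG42402 and phu. A count of 0 there allows up to 3 reads, or 1.74 CPM. Against that floor, mutant libraries 2 and 3 were at least 52.3-fold higher for Sur, at least 39.9-fold higher for Ama and at least 27.7-fold higher for Cht2. A further 19 members had 1 or 2 reads in wild-type library 1, so for 27 of the 199 the size of the first step rests on fewer than 3 reads.

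Roles could be given to 109 members from general knowledge, and they were grouped after their values had been seen. The largest group, with 27 members, was of signalling ligands, receptors and their transducers. N, the Notch receptor, was at 50.4, 93.7 and 76.5 CPM in wild-type libraries 1 to 3 and at 319, 151 and 149 CPM in mutant libraries 1 to 3. Its nuclear coactivator mam was at 70.2, 156 and 148 CPM in the wild-type libraries and 472, 251 and 256 CPM in the mutant ones. In both genes all mutant libraries lay above all wild-type libraries, with mutant library 1 the highest. The Wnt receptors shared this shape. For fz the wild-type libraries held 11.8, 25.9 and 41.4 CPM and the mutant libraries 165, 60.5 and 56.3 CPM. For fz2 the values were 17.0, 28.0 and 19.4 CPM against 187, 45.1 and 44.7 CPM.

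Alk, a receptor tyrosine kinase, was among the genes closest to BEAF-32 in profile. Its wild-type libraries held 0.471, 41.3 and 45.1 CPM and its mutant libraries 51.4, 122 and 108 CPM, so that mutant library 1 lay just above the wild-type libraries and far under the others of its genotype. The FGF ligand bnl stood at 14.6, 32.3 and 40.1 CPM in the wild-type libraries and 126, 96.0 and 83.5 CPM in the mutant ones. For puc, the phosphatase that is both target and inhibitor of the JNK pathway, the values were 142, 193 and 236 CPM against 301, 343 and 339 CPM. In the Toll receptor Tl, the inhibitory Smad Dad and the phospholipase C norpA, mutant library 1 also lay above all 3 wild-type libraries. Pdfr, the receptor of the neuropeptide PDF, rested on 0.471 CPM in wild-type library 1, and was at 22.2 and 18.2 CPM in the others and 53.8 to 63.1 CPM in the mutant libraries.

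Transcription factors made up 15 members. Luna, a Krüppel-like factor, was at 303, 452 and 488 CPM in the wild-type libraries and 895, 750 and 788 CPM in the mutant ones. Shn, a zinc-finger factor of Dpp signalling, was at 254, 405 and 411 CPM against 784, 621 and 633 CPM. In both, mutant library 1 lay above every wild-type library, as the rule had set for mutant libraries 2 and 3. The homeodomain factor hth was spread widely within the mutant genotype, with 239.5 CPM in mutant library 1 and 43.5 and 48.6 CPM in the others, over 10.4, 16.9 and 26.9 CPM in the wild-type libraries. Tsh, a zinc-finger factor of trunk identity, was at 4.71, 32.8 and 35.7 CPM against 185, 87.0 and 86.8 CPM. The forkhead factor CHES-1-like went another way: mutant library 1 held 379 CPM, close to wild-type library 2 at 359 CPM and library 3 at 376 CPM, while mutant libraries 2 and 3 held 637 and 636 CPM.

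Cytoskeletal members included some of the genes with the highest counts. Shot, the spectraplakin that links actin and microtubules, was at 539, 971 and 975 CPM in the wild-type libraries and at 2647, 1767 and 1685 CPM in the mutant libraries. Klar, which positions nuclei and lipid droplets, was at 343, 509.5 and 508 CPM against 1019, 822 and 797 CPM. Myosin VI, encoded by jar, was at 14.1, 28.0 and 30.7 CPM against 124, 49.3 and 46.6 CPM. In all 6 members of this group mutant library 1 lay above mutant libraries 2 and 3.

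Adhesion and surface proteins made up 11 members. Fax, an axonal protein, was at 19.8, 99.5 and 102 CPM in the wild-type libraries and 351, 225 and 207 CPM in the mutant ones. Ed, an immunoglobulin adhesion protein of epithelia, was at 53.7 to 100 CPM in the wild-type libraries and 160.2 to 212 CPM in the mutant ones. The integrin alpha subunit if had 12.7, 12.7 and 21.9 CPM against 27.9, 31.8 and 24 CPM, which left only a small gap between wild-type library 3 and mutant library 3.

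Ion channels, transporters and their subunits made up 12 members, with a median first step of 3.53-fold. Sur, an ABC protein of the sulfonylurea receptor family, held 0, 37.6 and 42 CPM in the wild-type libraries and 129, 92.3 and 90.0 CPM in the mutant ones. Stj, the alpha2delta subunit of voltage-gated calcium channels, held 0.942, 22.8 and 32.6 CPM against 150.4, 81.7 and 73.2 CPM. The potassium channel eag held 2.36, 23.8 and 13.8 CPM against 142, 38.7 and 37.6 CPM. For each of the 3, mutant library 1 lay above every wild-type library, as the rule had set for mutant libraries 2 and 3.

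**Figure D2:**
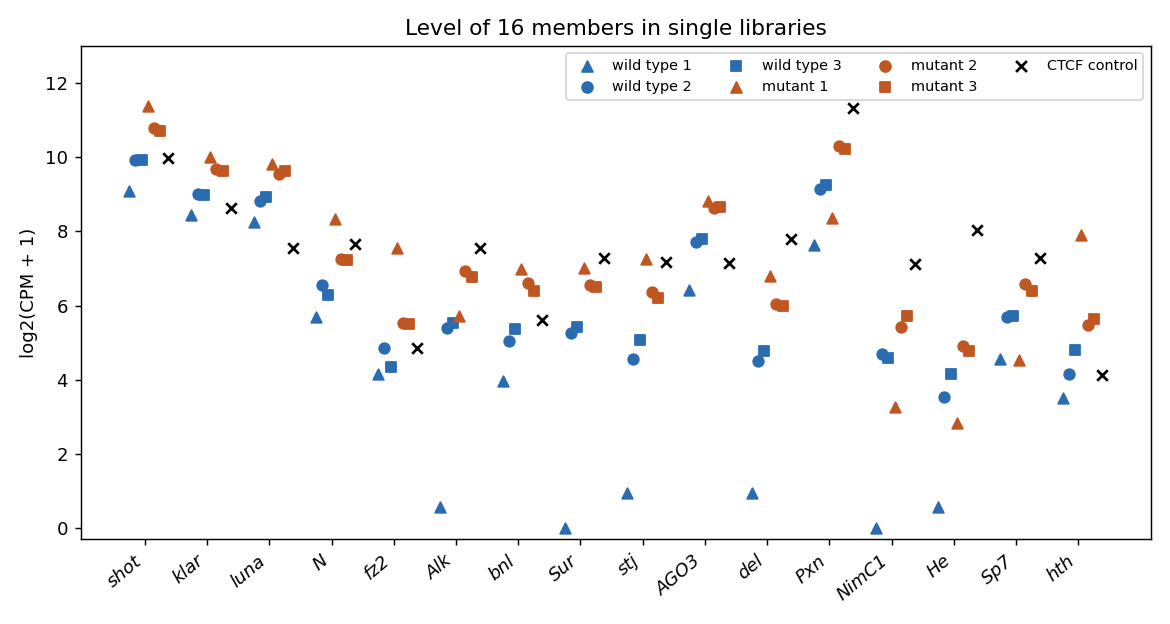
log2(CPM + 1) of 16 members, 1 column per gene, in the 3 wild-type libraries (blue), the 3 mutant libraries (orange) and the CTCF control (cross), with the replicate number given by the shape. Wild-type library 1 is the lowest Beaf library except for Sp7, and mutant library 1 is above mutant libraries 2 and 3 for genes such as shot and stj and below them for Pxn and NimC1.

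RNA-binding proteins and small RNA factors made up 6 members. AGO3, an Argonaute of the piRNA pathway, was at 85.3, 210.0 and 221 CPM in the wild-type libraries and 454, 394 and 399 CPM in the mutant ones. Del, a protein of the complex that allows transcription of piRNA clusters, was at 0.942, 21.7 and 26.3 CPM against 110.2, 64.7 and 62.8 CPM. The RNA-binding proteins heph and Syp and the DEAD-box helicase Dbp80 were in the same group. Dbp80 was at 233, 485 and 506 CPM against 537, 888 and 902 CPM, so its mutant library 1 was near the wild-type libraries.

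The 6 hemocyte receptors and matrix proteins did not move together in mutant library 1. Pxn, the matrix enzyme peroxidasin, was at 199, 559 and 605 CPM in the wild-type libraries and 329, 1258 and 1181 CPM in the mutant ones. Its mutant library 1 therefore lay between wild-type library 1 and the other wild-type libraries. NimC1, a phagocytosis receptor, was at 0, 24.9 and 23.2 CPM against 8.66, 41.9 and 51.8 CPM, and the surface protein He at 0.471, 10.6 and 16.9 CPM against 6.19, 29.2 and 26.6 CPM. The engulfment receptors eater and drpr went the other way, with 345 and 113 CPM in mutant library 1, above their 242 to 249 and 74.8 to 75.1 CPM in mutant libraries 2 and 3.

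Among secreted enzymes and detoxification genes, 12 members, mutant library 1 was also divided. The lysosomal mannosidase LManI held 5.18, 42.3 and 39.5 CPM in the wild-type libraries and 13.6, 88.6 and 81.0 CPM in the mutant ones. The serine protease Sp7 held 22.6, 50.3 and 52.0 CPM against 22.3, 94.4 and 82.9 CPM, with mutant library 1 just under the lowest wild-type library. The chitinase Cht2 held 79.8 CPM in mutant library 1 and 49.3 and 47.3 CPM in the other mutant libraries. Of the 6 genes for lipid carriers, receptors and enzymes, Apoltp, a lipid transfer protein of the hemolymph, resembled Pxn with 300.1, 513 and 577 CPM against 321, 1068 and 1029 CPM. The lipoprotein receptor mgl resembled shot, with 23.1, 42.3 and 42 CPM against 232, 71.6 and 71.2 CPM.

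Non-coding RNAs accounted for 8 members, among them mt:lrRNA, the large ribosomal RNA of mitochondria, which had the highest CPM of the members (CPM is not divided by length). It was at 4943, 8325 and 8172 CPM in the wild-type libraries and 19743, 14340.1 and 13469.7 CPM in the mutant ones. The U3 RNA gene snoRNA:U3:54Aa, of ribosomal RNA processing, was at 406, 671 and 1287 CPM against 1391, 1462 and 2002 CPM. Wild-type library 3 lay well above library 2 in this gene and in its neighbour snoRNA:U3:54Ab. The U1 spliceosomal gene snRNA:U1:21D was at 87.2, 151 and 162 CPM against 45.2, 201 and 282 CPM, with mutant library 1 the lowest of all. Copies of these RNAs are nearly identical, and how reads were divided among them is not given, so the level of a single copy is uncertain. In the CTCF control, 7 of the 8 RNAs lay below wild-type library 1, where 20.6% of all genes with at least 20 CPM did, and snoRNA:U3:54Aa was at 0 CPM.

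The likeness to BEAF-32 was measured as the root mean square difference of log2(CPM + 1), centred on each gene's mean, over the 6 Beaf libraries. The closest members were CG5080 at 0.32, Alk at 0.35, Ama at 0.38, Pdfr at 0.41 and FBgn0262742 at 0.42. In wild-type library 1 these rested on 1, 1, 0, 1 and 2 reads. Their place in that library was thus set largely by the 1 CPM added. Argk1, arginine kinase, came sixth at 0.43 with 2.83, 76.2 and 74.6 CPM in the wild-type libraries and 275, 164 and 187 CPM in the mutant ones. Members with high counts could lie much farther off, with shot at 1.51, luna at 1.63 and Apoltp at 1.71. As the measure includes the 5 libraries of the rule, it ranks members and tests nothing. Among members with at least 5 CPM in wild-type library 1, the widest ratio of mutant libraries 2 and 3 to that library was 29.3-fold, in FBgn0086911, followed by 23.4-fold in Pgant9, a mucin-type glycosyltransferase, and 18.6-fold in CG30089.

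Mutant library 1 showed what a mutant library outside the rule held. It exceeded the mean of the wild-type pair, libraries 2 and 3, in 170 of the 199 members, or 85.4%, where 36.9% of all genes with at least 20 CPM did so. Its ratio to that mean had a median of 2.22 over the members, with quartiles of 1.43 and 3.90, against 0.811 over all those genes. It exceeded 1.5 times that mean in 144 members, against 16.4% of the genes, and it exceeded the mean of mutant libraries 2 and 3 in 57.8% of the members, against 33.9%. The wild-type mean was itself used by the rule, which kept genes where it was low beside mutant libraries 2 and 3. These counts and ratios are therefore not free of the choice. No p-value is given, since a single library stood for the genotype.

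The share was high at each level: 75 of 85 members with 20 to 50 CPM in mutant libraries 2 and 3 were above the wild-type mean, as were 63 of 74 with 50 to 200 CPM and 32 of 40 with at least 200 CPM. The shares of all genes in these classes were 34.6%, 38.4% and 38.3%. By role, mutant library 1 was above the wild-type mean in all 27 signalling members, all 15 transcription factors, all 11 adhesion proteins and all 6 cytoskeletal members. It was above in 11 of the 12 channels and transporters, in 7 of the 12 secreted enzymes and in 2 of the 6 hemocyte genes. The highest ratios were 12.1 in FBgn0261281, 11 in FBgn0000497 and 10.9 in hth. The lowest were 0.259 in CG15740, 0.289 in snRNA:U1:21D and 0.333 in LManI. Members below even wild-type library 1 numbered 5, where 59.8% of all genes were: snRNA:U1:21D, Sp7, CG13795, Jheh1 and CG15740. The rule favoured genes low in wild-type library 1, where the median was 10.8 CPM over the members and 61.7 CPM over all those genes. The low count therefore follows in part from the choice.

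**Figure D3:**
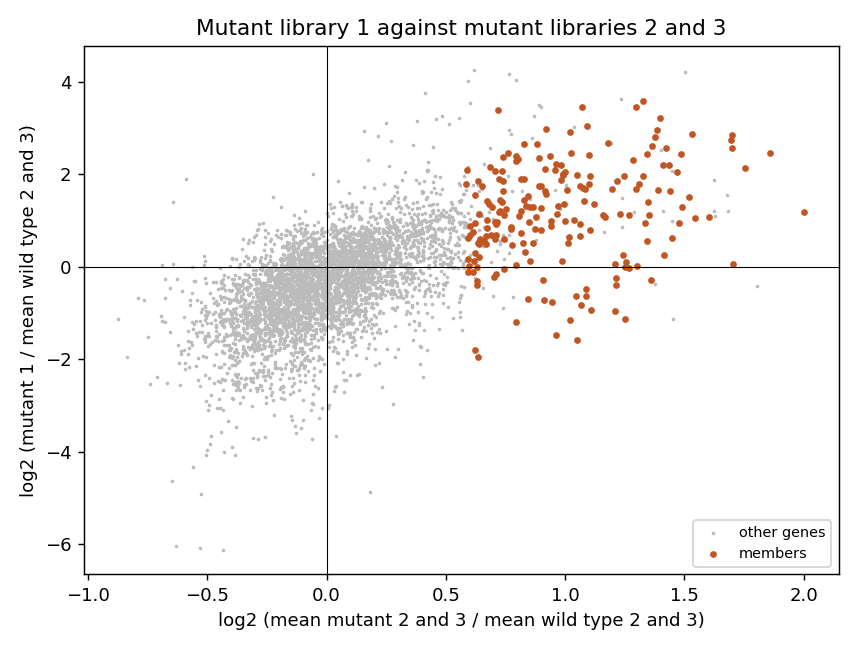
Each point is a gene with at least 20 CPM in mutant libraries 2 and 3, members in orange and other genes in grey, with the log2 ratio of those libraries to wild-type libraries 2 and 3 across and the log2 ratio of mutant library 1 to the same wild-type mean upward. The members lie to the right by choice, and 170 of the 199 lie above the horizontal line at a ratio of 1. Both ratios share the wild-type mean, which the rule used.

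Mutant library 1 differed from the others in more than the members. Of the 4055 genes at 0 in the other 5 Beaf libraries, it held a value above 0 in 1183, with a median of 1.24 CPM. The same count for mutant library 2 was 55 of 2927. The summed level of 4 neuronal markers was 177.6 CPM in it and 45.1 to 54.6 CPM in the other Beaf libraries, with elav at 0 in all 8 libraries. The sum of 4 epithelial markers was 446.8 CPM against 35.8 to 138 CPM, and that of 3 muscle markers 440.0 CPM against 863 to 1107 CPM. The epithelial markers crb, sdt and Fas3 were higher in mutant library 1, but kune was lower, at 6.81 CPM against 10.6 to 18.5 CPM. The muscle sum was mostly sls, at 431 CPM in mutant library 1. The other muscle markers, Act57B and Act88F, were higher there, at 3.09 and 5.57 CPM against at most 1.295 CPM. The 3 fat body markers summed to 6.19 CPM in it and to at most 1.94 CPM in the other Beaf libraries. The single germline marker matched, bam, was at 0.471 to 21 CPM across the Beaf libraries. Cp190, which encodes a cofactor of insulator proteins, was at 795 CPM in mutant library 1 and 186 to 205 CPM in the other Beaf libraries. The part of these differences in the members' values was not tested.

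The CTCF control gives the level of the members in S2 cells of another pair of libraries. It exceeded mutant libraries 2 and 3 in 108 of the 199 members, or 54.3%, compared with 77.7% of all genes with at least 20 CPM in those libraries. With TMM scaling it did so in 89. It lay between wild-type libraries 2 and 3 and mutant libraries 2 and 3 in 46 members, or 23.1%, against 4.32%. It lay below wild-type library 1 in 17 members, or 8.54%, against 20.6%. The rule set the order of these Beaf levels and the least gaps between them in the members, but not in the other genes. The differences in share therefore follow in part from the choice. Preparation, depth and the share of reads outside features differed between the Beaf and CTCF libraries along with the lines, and cannot be told apart from them.

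The control exceeded mutant libraries 2 and 3 in all 6 hemocyte genes, in 10 of 12 secreted enzymes and in 9 of 12 channels and transporters, where 77.7% of all genes did so. Pxn stood at 2587 CPM in the control, NimC1 at 138 CPM and He at 259.6 CPM, each above every Beaf library. It exceeded them in 10 of 27 signalling members and in 5 of 15 transcription factors. Luna was at 187 CPM, below its lowest Beaf library, and hth at 16.6 CPM, within the wild-type range. Dbp80 at 129 CPM and the mucin gene Muc14A at 58.4 CPM were also below all their Beaf libraries.

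Few members were far apart between the CTCF knockdown and its control, but at 1.5-fold their share was above that of all genes. Of the 173 members with at least 20 CPM in either library of the pair, 5 were at least 1.5-fold higher and 5 at least 1.5-fold lower, each 2.89%, where 1.09% and 0.583% of the 5315 genes at that level were. Past 1.3-fold, 12 (6.94%) were higher and 11 (6.36%) lower, against 4.31% and 1.67% of those genes. Past 2-fold, 2 (1.16%) were higher and 0 lower, against 0.263% and 0.245%. The median ratio of knockdown to control was 1.03 for the members and 1.03 for those genes. With 1 library per condition these are differences between libraries, with no replicate check, and the intervals given are exact 95% intervals that cover counting error only.

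CG6126 showed the widest difference, from 36.9 CPM in the control to 140.0 CPM in the knockdown, a ratio of 3.79 with an interval of 3.39 to 4.25. For stj the level went from 143 to 340.1 CPM, a ratio of 2.38 (2.24 to 2.53). The other members past 1.5-fold upward were mt:lrRNA at 1.69, Pka-R2, a regulatory subunit of protein kinase A, at 1.66, and the lipoprotein receptor LpR2 at 1.54. Downward, Pgant9 went from 116 to 62.1 CPM, a ratio of 0.535 (0.484 to 0.591). Ama, a secreted immunoglobulin protein of axon growth, went from 241 to 138 CPM, a ratio of 0.571 (0.534 to 0.611). The ratios of superdeath, NtR and Apoltp were 0.646, 0.646 and 0.649. BEAF-32 differed little, at 58.3 and 66.2 CPM. Reads that did not align were 18.4% of the control and 45.1% of the knockdown library.

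**Figure D4:**
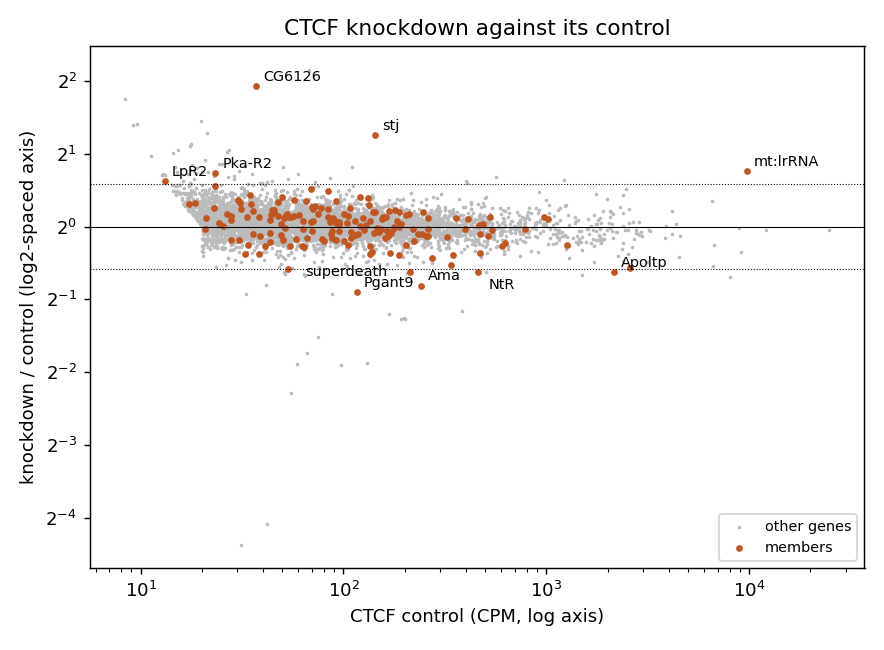
Ratio of CTCF knockdown to control (log2-spaced axis) against CPM in the control (log axis) for genes with at least 20 CPM in either library, members in orange and other genes in grey, with dotted lines at 1.5-fold up and down. The 10 members past those lines are named, CG6126 and stj being the farthest above.

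The structure of the genes was taken from the Ensembl annotation of BDGP6.54. In it 178 members were found by identifier, and 170 of those code for proteins. Structure was joined by gene identifier only, the build of the deposited counts being not given in the sources used here. The shares that follow are descriptions with no test. Many members were long genes. The distance from the first to the last annotated base had a median of 16.9 kb over the 170 coding members, compared with 4.07 kb over the 3817 other coding genes with at least 20 CPM in mutant libraries 2 and 3. A span of at least 20 kb was found in 77 of the 170, or 45.3%, against 10.5% of the others. The difference lay in introns more than in exons: the longest intron had a median of 6.94 kb against 0.552 kb, whereas the summed exons had medians of 3.92 and 2.87 kb. Heph at 168.5 kb, Dbp80 at 142.8 kb, mgl at 141.6 kb and luna at 138.4 kb were among the longest members, and the longest intron of luna alone measured 108.4 kb. By role, 11 of the 15 transcription factors and 18 of the 27 signalling members spanned at least 20 kb, against 1 of the 12 secreted enzymes and 1 of the 6 hemocyte genes.

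Gene length moved with the ratios over all coding genes with at least 20 CPM in mutant libraries 2 and 3, members included. In genes under 5 kb the median ratio of mutant to wild-type libraries 2 and 3 was 0.943. It was 1.02 from 5 to 20 kb, 1.15 from 20 to 50 kb and 1.26 from 50 kb. The median ratio of mutant library 1 to the wild-type mean ran from 0.690 to 0.938, 1.22 and 1.51 over the same classes. The step within the wild-type genotype ran from 1.01 to 1.17. Without the members, a calculation added after seeing the data, the 3 medians still ran from 0.939 to 1.19, from 0.682 to 1.36 and from 1.00 to 1.12. Between libraries 2 and 3 of a genotype, and between CTCF knockdown and control, the medians stayed between 0.979 and 1.03 in every class. Members were 53 of 2283 genes in the shortest class and 27 of 153 in the longest, or 2.32% and 17.6%. The part of gene length in the members' values was not tested.

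**Figure D5:**
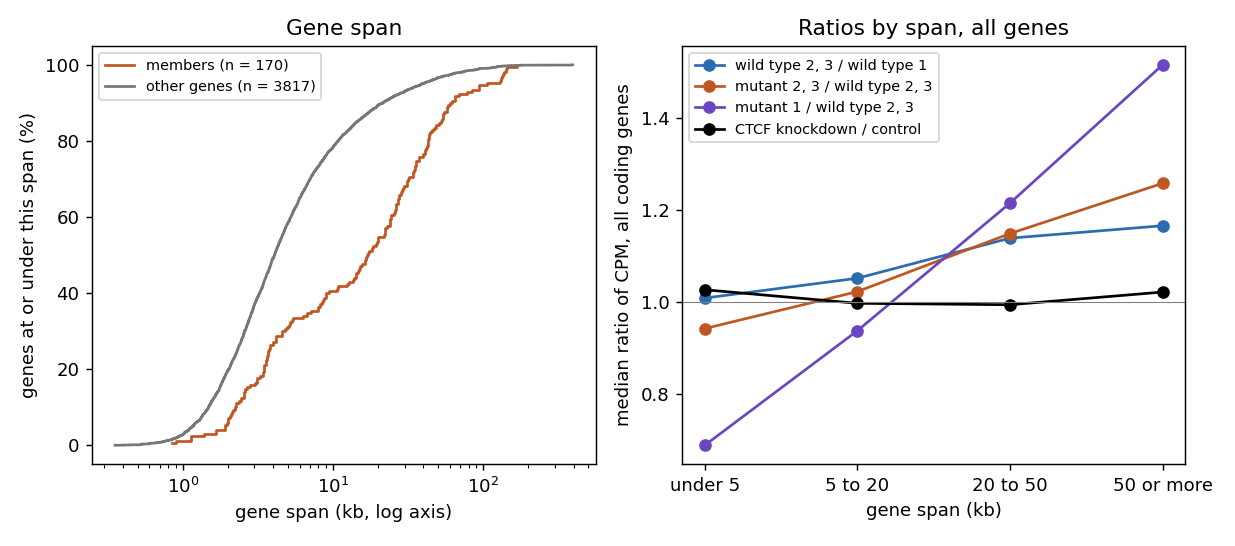
Left, the share of coding genes at or under each span (kb, log axis) for the 170 members and 3817 other genes with at least 20 CPM in mutant libraries 2 and 3. Right, the median ratio over all those genes by class of span for 4 pairs of library sets: the ratios among Beaf libraries climb with span and that of the CTCF pair stays near 1.

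Members were also arranged differently in the genome. A start site within 1000 bp of a start site transcribed in the opposite direction, the head-to-head arrangement in which BEAF-32 sites are known to be common, was found in 39 of the 170 coding members, or 22.9%, against 51.4% of the others. The start was the outermost annotated one of each gene, and only coding neighbours were counted. None of the 15 transcription factors among the members had such a neighbour. Of these, 11 spanned at least 20 kb, and the share among other transcription factors was not counted. The gap was present in short and long genes alike: 30.2% against 58.8% under 5 kb, and 19.7% against 41.0% from 5 kb. Among genes that overlap no other gene it was 24.1% against 54.2%. Across all coding genes at that level, the median ratio of mutant to wild-type libraries 2 and 3 was 0.969 in head-to-head genes and 1.02 in the rest. Binding of BEAF-32 was not analysed here.

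Members lay near each other more often than other genes did. Of the adjacent genes with at least 20 CPM, 1 on each side, at least 1 was a member for 42 of the 178 placed members, or 23.6%, and for 7.98% of the other genes. There were 21 pairs of adjacent members, with gaps of 0 to 132434 bp. The hemocyte genes He and NimC1 are 210 bp apart on arm 2L and on the same strand. The potassium channel eag and the synaptic ubiquitin ligase hiw are 147 bp apart on chromosome X, on opposite strands. CHES-1-like and CG15478, also on X, are 3397 bp apart. Where strand was not used in counting, reads of genes that overlap cannot be told apart, and 51.2% of the coding members overlap another gene, against 46.9% of the others. On chromosome 4, the small and largely heterochromatic one, there were 7 of 178 members, or 3.93%, against 1.27% of the other genes: CG1674, Cadps, CG31999, dati, Sox102F, CG32017 and mav. The 2 neighbours CG31999 and CG1674 are 2981 bp apart there.

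Lists of genes by function, drawn up with earlier results of these data known, were read on the second step, a contrast the rule used. The lists hold some members, such as 5 of the 30 hemocyte genes and 5 of the 39 transcription factors. They also hold genes that met the thresholds but were left out by name. On the hemocyte list these were Hml, Glt, Col4a1, vkg, NimB5 and Sr-CI. The counts of such lists are thus not free of the choice. The lists were read with limma on libraries 2 and 3 of each genotype, with Benjamini-Hochberg adjusted p below 0.05 over 6619 genes. In that comparison 618 genes, or 9.34%, were higher in the mutant libraries and 357, or 5.39%, were lower. Of the members, 183 were higher and 0 lower, which follows from their choice and is no result about them. Of 30 hemocyte genes tested 19 were higher and 1 lower, of 39 transcription factors 16 and 2, of 30 ion channel genes 11 and 1, and of 42 adhesion and axon guidance genes 11 and 0. Of 18 matrix genes 8 were higher and 2 lower. Of 52 genes of growth factor, Notch, Wnt and hedgehog signalling, N, fz, fz2, bnl and Alk among them, 10 were higher and 6 lower. The genes of basic cell functions did not share this: of 55 ribosomal protein genes 0 were higher and 15 lower, and of 30 proteasome genes 0 and 7. Of 57 cytoskeletal genes 8 were higher and 8 lower, and of 14 insulator protein genes 1 and 2.

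With all 6 Beaf libraries in the fit, limma called 0 of 6564 genes in either direction, or 0.0%, the smallest adjusted p being 0.214, and edgeR also called 0. At an unadjusted p below 0.05 there were 1274 genes, 173 of the members among them. DESeq2 called 219 higher, 110 of them members, and 1 lower. Without mutant library 1, limma called 286 genes higher, 86 of them members, and 185 lower. Every Beaf library but mutant library 1 was used to choose the members, so these counts of members are no result about them.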

How the data were processed

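Values per gene of 8 RNA-seq libraries of S2 cells were used: 3 per Beaf genotype, 1 CTCF control and 1 CTCF knockdown. The submitters' processing notes name CASAVA 1.8, BWA and HTSeq. Build, annotation and strand setting: not given in the sources used here. The deposited mutant and knockdown columns hold whole-number read counts. The deposited wild-type and control columns hold a signal, which the values show to be counts rescaled by a constant in each column and then rounded. Division by 1.234, 1.237 and 1.297 gave whole reads for 100% of values up to 300 in wild-type libraries 1 and 2 and the control, within rounding, against 81.0%, 80.8% and 77.1% for numbers at random. The third wild-type column was left as it was. CPM does not depend on such a factor.

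The last 5 rows, unassigned reads, were left out of totals: reads outside features were 85.6 to 94.0% of Beaf libraries, ambiguous reads 0.144 to 0.216%, and reads not aligned 0.790 to 10.4%. For the CTCF control and knockdown they were 8.05% and 6.93%, 3.27% and 2.16%, and 18.4% and 45.1%. Because the columns differ in unit, the planned count test became limma-trend (TMM factors, filterByExpr, log2 CPM with a prior count of 2, Benjamini-Hochberg at 0.05, two-sided), fitted over all genes and tested on simulated data. EdgeR, DESeq2 and the chi-square between libraries used recovered reads, with the third wild-type column as deposited. CTCF intervals are exact 95% intervals of the read ratio, and floors are 3 reads. Both cover counting error only.

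Members, lists, roles and the rule for named genes were chosen with earlier results of these data known. Named genes were those with the highest level, the widest ratios, the closest profile to BEAF-32, the nearest places to a threshold or a 1.5-fold CTCF difference, plus examples of each role, picked after their values were seen. Replicate numbers were not used to pair libraries. Counting and joins used Python 3.11.15 with numpy 2.4.6, pandas 2.3.3 and scipy 1.17.1, and plots matplotlib 3.10.9. Fits used DESeq2 1.42.0, edgeR 4.0.16 and limma 3.58.1 under R 4.3.3.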

Additional observations from a re-analysis of the deposited data

How the results depend on the processing

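The number of genes meeting the rule was 199 as reported. It became 326 with a second step of 1.3-fold, 84 with 2-fold, 322 with a minimum of 10 CPM and 132 with 40 CPM. Leaving out 1 library at a time gave 184 to 225. With mutant library 1 in place of mutant libraries 2 and 3, an alternative chosen after seeing the data, 599 genes met it, 140 of them members. Members higher in mutant library 1 than wild-type libraries 2 and 3 were 170, 160 with TMM scaling and 166 to 173 when a wild-type library was left out. In the CTCF pair the 5 higher and 5 lower members became 12 and 11 at 1.3-fold, 2 and 0 at 2-fold and 10 and 8 with no minimum level. TMM scaling lowered the count of members above mutant libraries 2 and 3 in the CTCF control from 108 to 89.

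For libraries 2 and 3, DESeq2 called 166 genes higher and 14 lower in place of 618 and 357. Leaving out 1 library gave 408 to 590 and 252 to 307, and the lowest count of higher genes, 408, came without mutant library 3. Such fits assume that a lone library varies like the others. For all 6 libraries, DESeq2 called 219 higher and 1 lower in place of 0 and 0. Leaving out 1 library gave 0 to 286 and 0 to 185, the calls coming without mutant library 1. The cause was not tested. Replicate numbers did not pair the libraries: deviations of same-numbered libraries correlated at -0.16, -0.12 and -0.08, and no library correlated best with its own number. With the replicate block, 740 genes were higher and 490 lower in libraries 2 and 3, and 0 and 0 with all 6. The alternatives on promoter motifs were not run.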
